A study of Mus musculus with 6 samples.

Results

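The 40 genes described here drive the cell division cycle and the copying of DNA: cyclins and their kinase, factors that prepare and run DNA replication, and proteins of the mitotic spindle and its checkpoint. They were taken by gene symbol from the tables of all 6 libraries, out of 54309 genes listed, and all 40 were found. Estimated reads were summed over the transcripts of each gene. By role, 6 were placed in G1, 12 in S phase, where DNA is copied, and 22 in the G2 and mitotic phase, called mitotic below. All 40 passed the filter on low counts, which kept 19129 genes.

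Sciatic nerves (left side, distal part) were taken from C57BL/6 mice aged 6 to 8 weeks at 24 h after surgery, and 3 libraries came from females and 3 from males. Each library pooled the tissue of 2 animals. The question was how early transcript levels in degenerating nerve depend on sex. The treatment field gives axotomy (cutting the nerve) for every library, whereas the written procedure has the nerve exposed and left uncut. The labels therefore do not settle whether these nerves were cut, and both sexes share that doubt. No group without surgery was used here. The libraries held 55272138 to 77610593 estimated reads. Transcripts of the myelin gene Mbp stood at 2814 to 7397 CPM (counts scaled to a common library size after TMM normalization), and the Schwann cell factor Sox10 at 170.1 to 278 CPM, so these markers of nerve were present in every library. Female 2 and male 1 also held skeletal muscle transcripts, at a summed 1929 and 1023 CPM over 12 genes against 8.72 to 29.3 CPM in the other libraries. Female 1 alone held raised keratinocyte transcripts, at a summed 39.9 CPM over 6 genes against 2.50 to 3.72 CPM elsewhere. The excess was in Krt5, Krt14 and Dsp, at 10.2, 17.8 and 8.82 CPM. The other genes of that list, Krt1, Krt10 and Trp63, were not highest in female 1.

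A resting cell enters the cycle when D-type cyclins and their kinases inactivate the RB proteins and release E2F factors, which switch on E-type cyclins and the genes of replication. Origins are then licensed by loading the MCM helicase, DNA is copied, and a later wave of genes, driven by B-MYB and FOXM1, supplies cyclin B, the spindle and the checkpoint. In an injured nerve, Schwann cells, fibroblasts and macrophages can divide in the part beyond the lesion, and quiescent adult nerve holds few dividing cells. In bulk RNA, fewer dividing cells and less RNA per dividing cell cannot be told apart.

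Promoters of the later wave are known to carry the cell cycle homology region (CHR) and CCAAT boxes, and those of replication genes E2F sites. The upstream stretches below are from RefSeq (GRCm38.p6), end 1 base before the annotated transcript start, and are shown because they hold the letters counted by phase below. Capitals mark matches on either strand to the CHR letters (TTTGAA or TTCGAA, the latter reading the same on both strands), the CCAAT box (CCAAT) or the E2F letters (TTTGGCG, which is the first form searched, then TTTCCCG, as well as TTTCGCG, and finally TTTGCCG). Matches on the other strand appear as the reverse complement, so that a CCAAT box appears as ATTGG and the CHR letters TTTGAA as TTCAAA. Matches can overlap, as a pair does in Mcm6.
Cdk1 (chr10:69352913-69353052, minus strand): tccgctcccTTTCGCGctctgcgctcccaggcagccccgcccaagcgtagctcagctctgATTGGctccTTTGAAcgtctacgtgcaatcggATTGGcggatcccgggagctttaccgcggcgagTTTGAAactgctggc
Ube2c (chr2:164769789-164769928, plus strand): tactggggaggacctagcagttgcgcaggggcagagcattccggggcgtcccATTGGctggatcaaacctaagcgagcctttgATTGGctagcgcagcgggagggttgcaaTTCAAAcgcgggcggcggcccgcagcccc
Cdc20 (chr4:118437344-118437483, minus strand): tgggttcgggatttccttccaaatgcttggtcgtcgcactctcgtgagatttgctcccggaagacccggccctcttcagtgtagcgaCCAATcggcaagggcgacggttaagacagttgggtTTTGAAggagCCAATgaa
Kif11 (chr19:37376242-37376381, plus strand): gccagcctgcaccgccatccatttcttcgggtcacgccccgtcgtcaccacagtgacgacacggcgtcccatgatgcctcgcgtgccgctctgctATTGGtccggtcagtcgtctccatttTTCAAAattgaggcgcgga
Mki67 (chr7:135716380-135716519, minus strand): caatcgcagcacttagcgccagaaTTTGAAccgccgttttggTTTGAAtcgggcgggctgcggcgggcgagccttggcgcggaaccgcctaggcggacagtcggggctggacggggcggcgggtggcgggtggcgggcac
Ccnb1 (chr13:100786487-100786626, minus strand): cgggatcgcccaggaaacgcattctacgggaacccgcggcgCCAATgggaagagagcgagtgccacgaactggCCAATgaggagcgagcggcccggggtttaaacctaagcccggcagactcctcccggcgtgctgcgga
Aurka (chr2:172370571-172370710, minus strand): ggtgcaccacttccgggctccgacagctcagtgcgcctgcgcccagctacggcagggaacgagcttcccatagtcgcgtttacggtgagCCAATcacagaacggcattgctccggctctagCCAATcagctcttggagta
Mcm6 (chr1:128359706-128359845, minus strand): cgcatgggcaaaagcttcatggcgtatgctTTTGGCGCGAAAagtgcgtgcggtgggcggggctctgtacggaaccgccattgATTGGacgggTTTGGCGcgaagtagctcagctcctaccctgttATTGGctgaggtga
Cdc6 (chr11:98908011-98908150, plus strand): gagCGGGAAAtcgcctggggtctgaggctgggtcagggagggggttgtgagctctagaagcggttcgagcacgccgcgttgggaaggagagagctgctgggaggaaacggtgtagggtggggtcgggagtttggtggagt
In Cdk1 the CHR letters began 71 and 15 bases before the start, in Ube2c 29, in Cdc20 18 and in Kif11 19. Those of Aurka lay beyond the start, outside the stretch shown, and Ccnb1 held a pair of CCAAT boxes and no CHR letters in its window.

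Promoter windows of 300 bases (250 before and 50 after the start) were given for 30 of the 40 genes; Ccnd1, Ccnd2, Ccne2, Gmnn, Mcm4, Ccna2, Cdc25c, Foxm1, Aurkb and Tpx2 had none. CHR letters were found in 13 of 17 mitotic windows (76.5%), 2 of 11 S-phase windows (18.2%) and 0 of 4 G1 windows, against 19.2% of all 32851 windows. The mitotic genes without them were Birc5, Ccnb1, Cenpe and Mybl2. CCAAT boxes were in 82.4% of mitotic and 72.7% of S-phase windows, against 37.4% of all. The E2F letters were in 6 of 11 S-phase windows (54.5%), those of Cdc6, Cdt1, Mcm3, Mcm5, Mcm6 and Mcm7, in 2 mitotic ones (Birc5 and Cdk1), and in 6.7% of all windows. CHR letters and a CCAAT box occurred together in 12 mitotic windows (70.6%), against 7.52% of all. These matches describe the sequences and do not show binding.

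Levels were compared between genes by TPM, which corrects for transcript length. Pcna, the sliding clamp of the replication polymerase, had the highest TPM of the 40, at 192 to 229 in the 6 libraries. The cyclin genes Ccnd3, at 92.2 to 101 TPM, and Ccnd1, at 57.2 to 70.8 TPM, came next, and these first 3 did not overlap. The kinase gene Cdk1 came after these, at 20.6 to 52.5 TPM, and 42.3% to 59.2% of its TPM was in protein-coding transcripts. Ccnd2 (28.4 to 41.5 TPM), the helicase genes Mcm6 (28.5 to 34.5 TPM) and Mcm7 (23.9 to 33.4 TPM) and Tyms (22.8 to 37.8 TPM) overlapped with Cdk1 and with one another. Of the Tyms TPM, only 20.4% to 33.9% was in protein-coding transcripts. The lowest were Cenpf, Cdc25c and Cenpe, with mean TPM of 1.28, 1.78 and 2.09. Summed over phases, the 6 G1 genes held 208 to 239 TPM, the 12 S-phase genes 399.9 to 469.95 and the 22 mitotic genes 104 to 252, so the widest range was in the mitotic group.

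Between the sexes, mitotic genes had a median farther from 0 than S-phase genes, and G1 genes lay on both sides of it. All 22 mitotic genes had a log2 fold change (female minus male) above 0, with a median of 0.54, and all 12 S-phase genes did, with a median of 0.17. Of the 6 G1 genes 4 were below 0 and the median was -0.09, which turned to 0.0033 without female 2 and male 1. Over all 19129 genes 53.6% were above 0, 46.4% were below 0 and the median was 0.02. All 3 D-type cyclins were below 0 in this fit, and the replication and mitotic genes were above it. Ccnd3 overlapped between the sexes by CPM, and Mcm3, Mcm4 and Cdc6 changed sign in other settings.

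No member passed an adjusted p of 0.05 in edgeR's quasi-likelihood test over all genes, where 0.11% of genes were called, 0.0157% higher and 0.0941% lower in females. At an unadjusted p under 0.05 the test gave 12 members higher and 2 lower in females, against 5.82% and 8.74% of all genes. The 12 were 8 mitotic and 4 S-phase genes, and the 2 were Ccnd1 and Ccnd2. DESeq2 called 2 members, Aurka and Cdk1, both higher in females, where it called 4.55% of all genes and 1.22% in that direction, and limma-voom called none. In edgeR, no member was called with no filter on low counts, without female 3 or from coding transcripts alone, where 0.598%, 1.05% and 0.0985% of all genes were called. By CPM, every female library lay above every male library in 12 mitotic and 7 S-phase genes, where 9.65% of all genes did so. Female libraries all lay below the male ones in 2 G1 genes, where 11.5% of all genes did. Overlap of single genes is given below by CPM as well, and by TPM some differed. By TPM Cdk1 overlapped (33.97 in female 2, 35.9 in male 3), as did Ccnb1 (6.93 in female 1, 7.27 in male 3). Ccnd2 (34.6 in female 2, 33.1 in male 1), Mcm3, Mcm6 and Aurkb overlapped too, whereas Aurka, Ccnd1 and Pcna did not. Ccnd3, Mybl2 and Cenpe went the other way, with overlap by CPM and none by TPM. Their TPM was 92.2 to 99.9, 3.28 to 3.93 and 2.16 to 3.52 in females. In males it was 100.7 to 101.2, 2.33 to 2.83 and 1.35 to 1.77. The members share these 6 libraries and move together, so they are not separate observations.

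**Figure D1:**
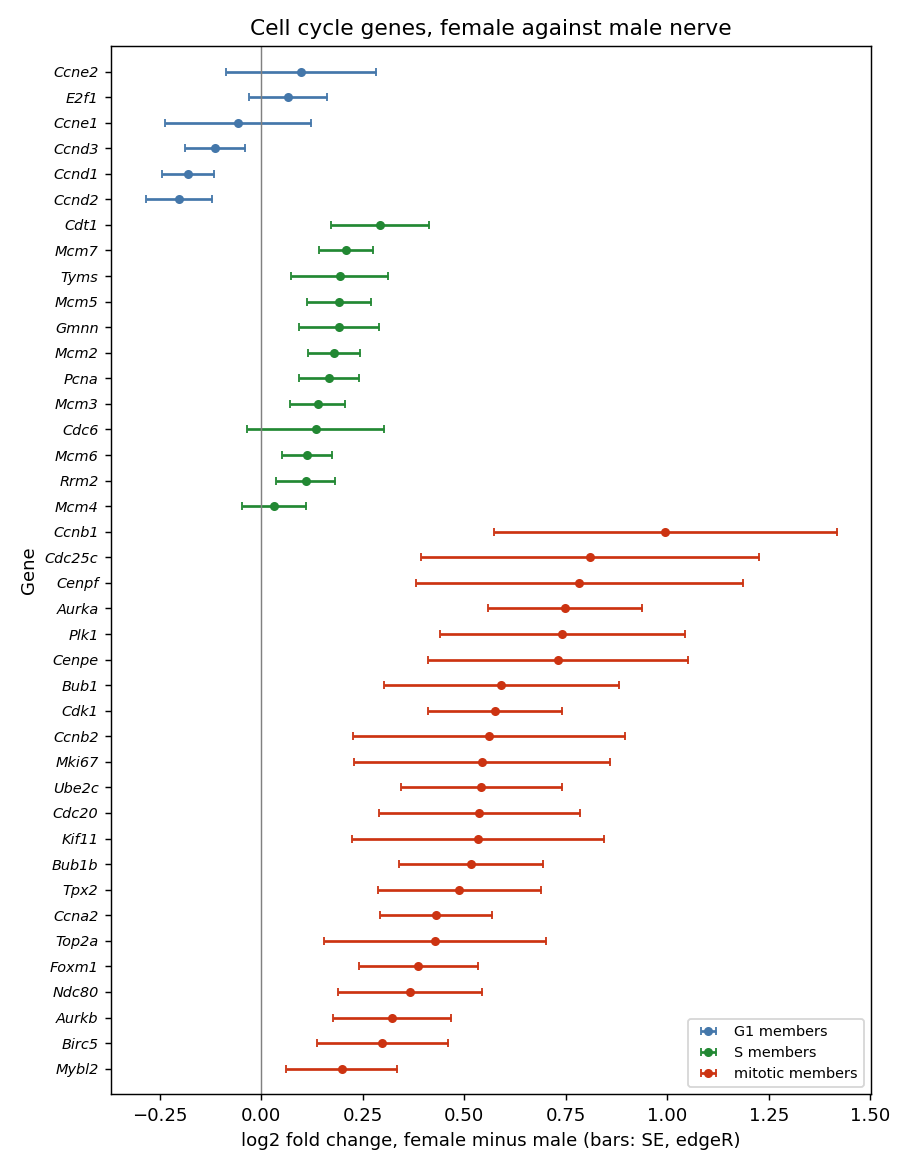
Log2 fold change, female minus male, of the 40 genes with its standard error from edgeR, grouped by phase. Mitotic genes run from 0.20 (Mybl2) to 0.995 (Ccnb1), S-phase genes from 0.03 (Mcm4) to 0.29 (Cdt1) and G1 genes from -0.20 (Ccnd2) to 0.10 (Ccne2).

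Of the G1 genes, the D-type cyclins couple growth signals to the cycle. Ccnd1, a cyclin gene that Schwann cells need for dividing after injury, was at 136, 131 and 133 CPM in the female libraries and 152, 146 and 155 CPM in the male ones, here and below in the order of replicates 1 to 3. The 2 sexes did not overlap, and the log2 fold change was -0.18 (SE 0.06, edgeR adjusted p 0.269). Ccnd2 was at 106, 124 and 121 CPM in females and 131, 132 and 141 CPM in males, again with no overlap (-0.20, SE 0.08, edgeR adjusted p 0.316). Ccnd3 was at 103, 92.8 and 93.4 CPM against 109.7, 104 and 99.1 CPM, where female 1 lay above male 3 (-0.12, SE 0.07). Leaving out each library in turn kept Ccnd1 between -0.21 and -0.17.

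E2f1, the transcription factor that D-type cyclin activity releases, was at 21.0, 18.8 and 18.9 CPM in females and 20.1, 19.3 and 16.7 CPM in males, with the sexes interleaved. Its log2 fold change was 0.07 (SE 0.10). The E-type cyclins, which act with CDK2 at the start of S phase, also interleaved: Ccne1 was at 4.29 to 6.54 CPM in females and 4.70 to 6.00 in males, and Ccne2 at 6.89 to 11.8 against 8.72 to 9.49 CPM. Their log2 fold changes of -0.06 (SE 0.18) and 0.10 (SE 0.19) were smaller than their errors.

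All 12 replication genes were above 0, by 0.03 to 0.29, and the signs of Mcm3, Mcm4 and Cdc6 depended on the setting: Mcm3 was at -0.033 with a transcript length offset, and Cdc6 and Mcm4 were at -0.02 and -0.03 without female 1. Licensing begins with CDC6 and CDT1, which load the MCM ring, and is blocked by geminin. Cdt1 was at 18.5, 17.0 and 14.1 CPM in females and 12.3, 14.5 and 13.8 CPM in males, where female 3 lay inside the male range (0.29, SE 0.12, edgeR adjusted p 0.324). Cdc6 had 0.13 (SE 0.17), with 8.47 to 11.9 against 7.69 to 10.7 CPM. Gmnn, the geminin gene, was at 8.36 to 9.82 CPM in females and 7.62 to 8.14 in males, without overlap (0.19, SE 0.10).

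The 6 MCM genes encode the ring-shaped helicase that unwinds DNA. Mcm7 was at 50.1, 45.8 and 44.1 CPM in females and 40.06, 40.96 and 40.13 CPM in males (0.21, SE 0.07, edgeR adjusted p 0.229). Mcm2 stood at 37.7, 35.5 and 35.3 CPM against 31.7, 33.1 and 31.0 CPM (0.18, SE 0.06, edgeR adjusted p 0.271). For both, each female library lay above each male one. Mcm5 was at 51.4, 44.4 and 48.3 CPM in females and 40.8, 45.1 and 40.3 CPM in males, with female 2 just below male 2 (0.19, SE 0.08, edgeR adjusted p 0.319). Mcm6 was at 70.6, 66.4 and 70.4 against 62.3, 66.3 and 63.2 CPM, where female 2 and male 2 nearly touched. Mcm3 had 0.14 (SE 0.07) and Mcm4 0.03 (SE 0.08). All 6 MCM genes were highest in female 1, which 17.8% of all genes were. It is the library with raised keratinocyte transcripts, whose part in this was not tested.

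Pcna was at 152, 140.1 and 154 CPM in females and 138, 134 and 125 CPM in males, a log2 fold change of 0.17 (SE 0.07, edgeR adjusted p 0.353) with no overlap. Tyms and Rrm2 supply nucleotides for replication. Tyms, the thymidylate synthase gene, was at 24.1, 20 and 25.6 CPM against 17.9, 21.1 and 22.0 CPM, so female 2 lay inside the male range (0.19, SE 0.12). Rrm2, a ribonucleotide reductase subunit gene, was at 20.1 to 21.5 CPM in females and 18.9 to 19.6 in males (0.11, SE 0.07).

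Mitotic genes had larger differences and larger errors. Their SE had a median of 0.22, against 0.08 for the S-phase genes. Cdk1, the kinase of mitotic entry, was at 19.99, 16.6 and 24.8 CPM in females and 11.7, 14.0 and 15.5 CPM in males, without overlap. Its log2 fold change was 0.58 (SE 0.16, edgeR adjusted p 0.197, DESeq2 adjusted p 0.0299). Ccna2, the cyclin of S phase and G2, was at 21.2, 18.7 and 23.6 CPM in females and 12.9, 17.4 and 16.9 CPM in males, also without overlap (0.43, SE 0.14, edgeR adjusted p 0.229). Ccnb1, the main mitotic cyclin, was at 8.87, 9.49 and 16.5 CPM in females and 2.98, 6.13 and 8.45 CPM in males, so the lowest female lay above the highest male. Its log2 fold change of 0.995 (SE 0.42, edgeR adjusted p 0.355) was the largest of the 40, and female 3 was at 5.54 times male 1. Ccnb2 had 0.56 (SE 0.34), and Cdc25c, the phosphatase that activates CDK1, 0.81 (SE 0.42) at a level of 0.732 to 3.48 CPM.

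Foxm1 and Mybl2 encode transcription factors of this wave. Foxm1 was at 13.3, 13.0 and 13.6 CPM in females and 7.93, 10.6 and 12.0 CPM in males, so the female libraries lay close together above all males (0.39, SE 0.15, edgeR adjusted p 0.294). Mybl2, which encodes B-MYB, had the smallest mitotic value in the edgeR fit, 0.20 (SE 0.14), at 5.68 to 7.68 against 5.37 to 5.95 CPM. The sexes of Mybl2 overlapped by CPM, and its value was 0.07 without female 1. With the transcript length offset Mybl2 was at 0.43 and Foxm1 at 0.45, and Mybl2 was not the smallest. The difference between the 2 genes was not tested.

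Among the mitotic kinases, Aurka had the smallest unadjusted p of the 40 genes, 0.00465. Aurora A builds the spindle poles. Its gene was at 5.87, 5.42 and 7.53 CPM in females and 2.95, 3.84 and 4.43 CPM in males, without overlap, a log2 fold change of 0.75 (SE 0.19, edgeR adjusted p 0.171, DESeq2 adjusted p 0.0118). Leaving out each library in turn kept it between 0.59 and 0.88. Plk1 was at 6.24, 5.99 and 9.06 CPM against 2.52, 5.07 and 5.19 CPM (0.74, SE 0.30). Aurkb and Birc5, whose products form the chromosomal passenger complex, had 0.32 (SE 0.15) and 0.30 (SE 0.16). Birc5 was at 10.6, 8.44 and 11.1 CPM in females and 6.71, 8.22 and 9.64 CPM in males, where female 2 lay below male 3.

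Checkpoint, kinetochore and spindle genes lay in the same range. Bub1b, a spindle checkpoint gene, was at 14.4, 15.2 and 17.6 CPM in females and 8.08, 12.4 and 12.6 CPM in males, without overlap (0.52, SE 0.18, edgeR adjusted p 0.261), and its partner Bub1 had 0.59 (SE 0.29). Cdc20 and Ube2c, the activator and the ubiquitin carrier of the anaphase-promoting complex, had 0.54 (SE 0.25) and 0.54 (SE 0.20). The kinetochore genes Cenpe, Cenpf and Ndc80 had 0.73 (SE 0.32), 0.78 (SE 0.40) and 0.37 (SE 0.18), and Cenpf was at 0.35 with the transcript length offset. For Kif11 and Tpx2, which act in the bipolar spindle, the values were 0.53 (SE 0.31) and 0.49 (SE 0.20).

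Top2a, which untangles chromosomes, and Mki67, which coats them and is widely used as a marker of dividing cells, had the highest CPM of the mitotic group. CPM is not corrected for transcript length. By mean TPM Cdk1 (36.3) lay above Top2a (22.6), and Mki67 was at 7.17, below Birc5 (15.1) and Ccna2 (14.0). Top2a was at 58.4, 57.5 and 77.3 CPM in females and 29.7, 53.1 and 60.9 CPM in males (0.43, SE 0.27, edgeR adjusted p 0.537). Mki67 was at 57.4, 61.3 and 77.99 CPM in females and 25.9, 47.4 and 61.8 CPM in males (0.54, SE 0.32, edgeR adjusted p 0.498). In both genes male 3 lay above at least 1 female library, and male 1 stood far below the other males.

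**Figure D2:**
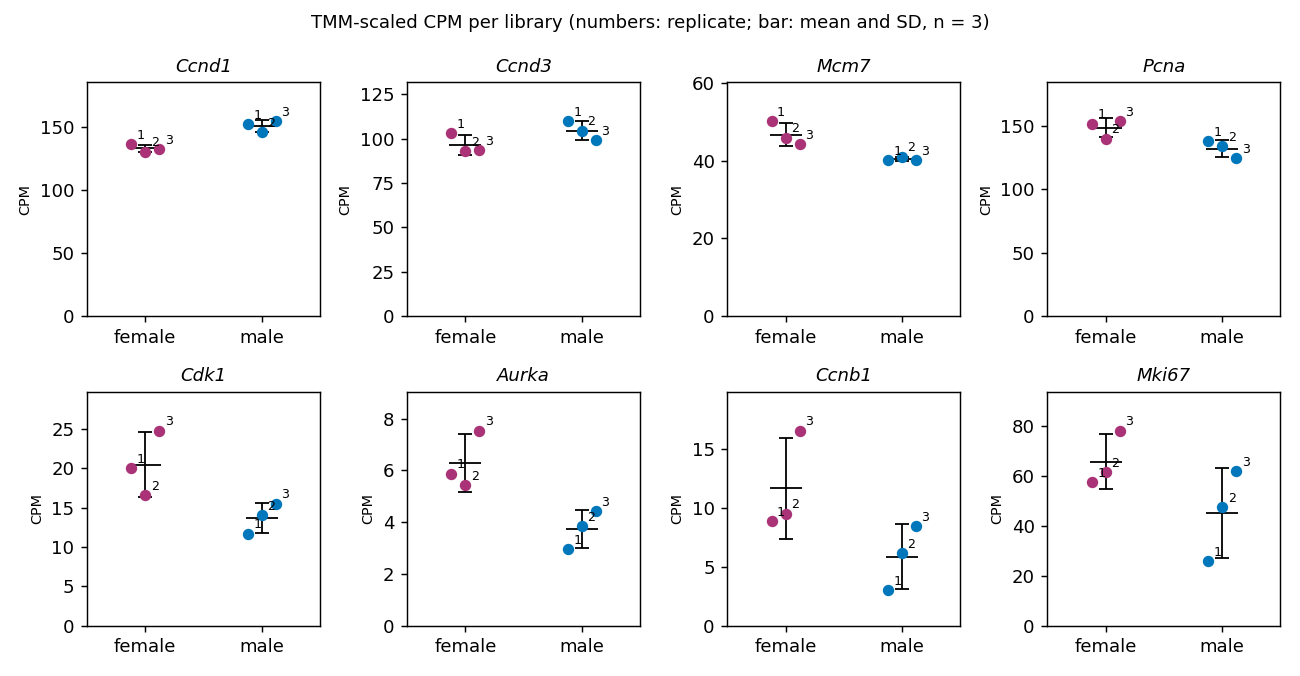
TMM-scaled CPM in each library for 2 D-type cyclins (Ccnd1, Ccnd3), 2 replication genes (Mcm7, Pcna) and 4 mitotic genes (Cdk1, Aurka, Ccnb1, Mki67), with mean and SD of 3 libraries a sex. Female 3 and male 1 are the ends of the range in the 4 mitotic genes, while Ccnd1 lies at 131 to 136 CPM in females and 146 to 155 CPM in males.

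The libraries differed in a phase-dependent way. Male 1 was the lowest library for 21 of 22 mitotic genes, all but Mybl2, and female 3 the highest for 20, all but Mybl2 and Aurkb. Among all genes tested 25.0% were lowest in male 1 and 13.3% highest in female 3. Of the 12 S-phase genes, 10 were highest in female 1, the library with raised keratinocyte transcripts. The lowest library of the 12 was male 1 for 5, male 3 for 5 and male 2 for 2. The order of libraries by mitotic genes was therefore not their order by S-phase genes.

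A phase level, the mean over its genes of log2 (CPM + 1) after subtracting each gene's mean, was taken for each library. For mitotic genes it was 0.16, 0.09 and 0.50 in the females and -0.66, -0.11 and 0.03 in the males, so male 3 was within 0.1 of female 2. For S-phase genes it was 0.17, 0.01 and 0.05 in females and -0.09, -0.04 and -0.10 in males. For G1 genes it was 0.08, -0.12 and -0.06 in females and 0.07, 0.05 and -0.02 in males, with full overlap, whereas the 3 D-type cyclins alone gave -0.09, -0.08 and -0.08 against 0.10, 0.06 and 0.09. The whole range over the 6 libraries was 1.17 for mitotic, 0.27 for S-phase and 0.20 for G1 genes. The mitotic range was thus wider than the other 2 within each sex as well.

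**Figure D3:**
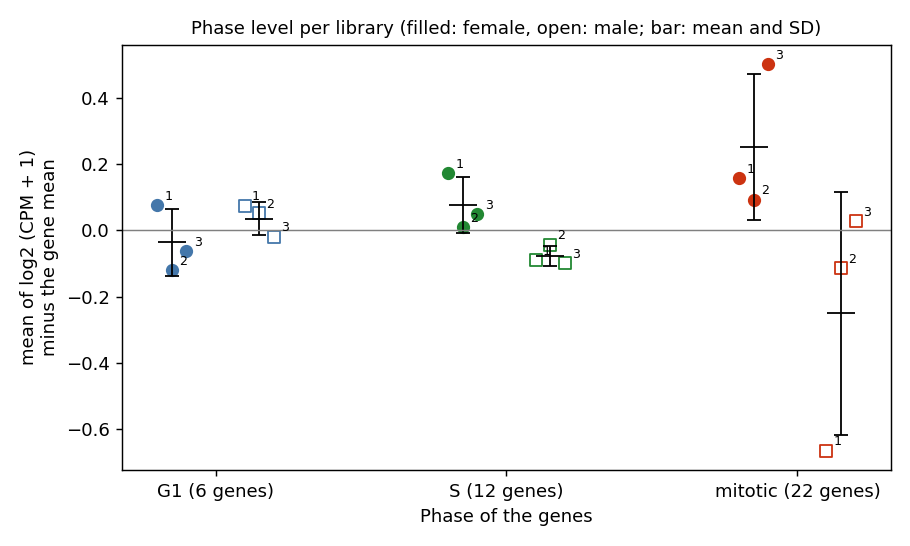
Phase level (mean of log2 (CPM + 1) minus each gene's mean) per library for G1, S-phase and mitotic genes, filled circles for females and open squares for males, with replicate numbers and mean and SD of 3 libraries a sex. Mitotic genes spread from -0.66 in male 1 to 0.50 in female 3, and S-phase genes from -0.10 in male 3 to 0.17 in female 1.

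**Figure D4:**
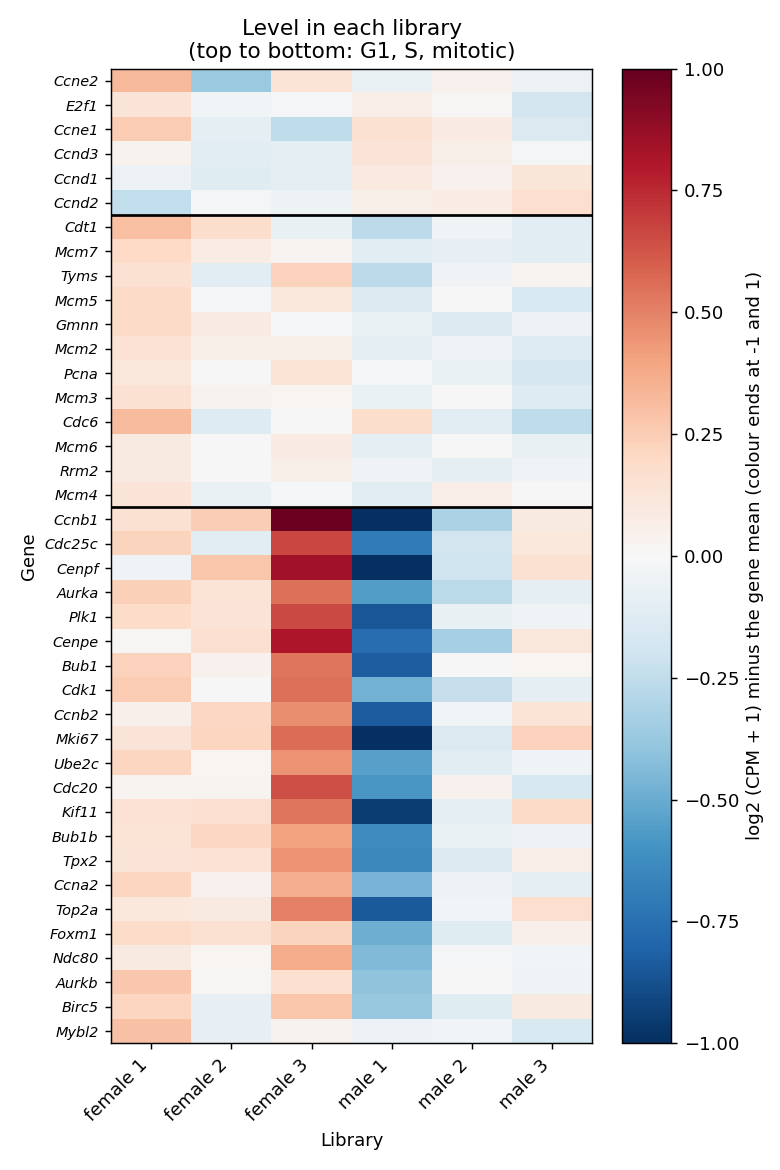
Level of each of the 40 genes in each library as log2 (CPM + 1) minus the gene's mean, with G1, S-phase and mitotic genes from top to bottom. The male 1 column is the lowest for 21 of the 22 mitotic genes and the female 3 column the highest for 20.

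The mitotic difference depended most on male 1. The mitotic median of 0.54 was 0.32 without male 1 and 0.40 without female 3, and 0.60, 0.59, 0.61 and 0.66 without female 1, female 2, male 2 and male 3. All 22 mitotic genes stayed above 0 in each of these fits. Without male 1 the values of 14 mitotic genes moved by over 1.5 times, and those of Top2a, Mki67 and Kif11 were 0.18, 0.27 and 0.25. Ccnb2 was then at 0.25, Bub1 at 0.32 and Plk1 at 0.47. Foxm1, Bub1b, Tpx2, Ndc80, Aurkb and Birc5, of the spindle, its checkpoint and its regulators, were at 0.24, 0.34, 0.30, 0.22, 0.19 and 0.18, and Cdc25c and Cenpf at 0.49 and 0.48. Without female 3 the same held for 7, among them Ccnb1 at 0.65, Cdc20 at 0.27 and Cenpe at 0.42. The S-phase median moved less, from 0.13 without female 1 to 0.20 without female 2. Cdc6 and Mcm4 were below 0 without female 1, and Mcm4 was without male 1. The G1 median ran from -0.15 without male 3 to -0.02 without female 3. Without female 2 and male 1, the libraries with muscle transcripts, the medians were 0.37 for mitotic, 0.21 for S-phase and 0.00 for G1 genes. In that fit 22 mitotic and 12 S-phase genes were above 0, and 15 and 10 had both females above both males, against 23.5% of all genes.

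**Figure D5:**
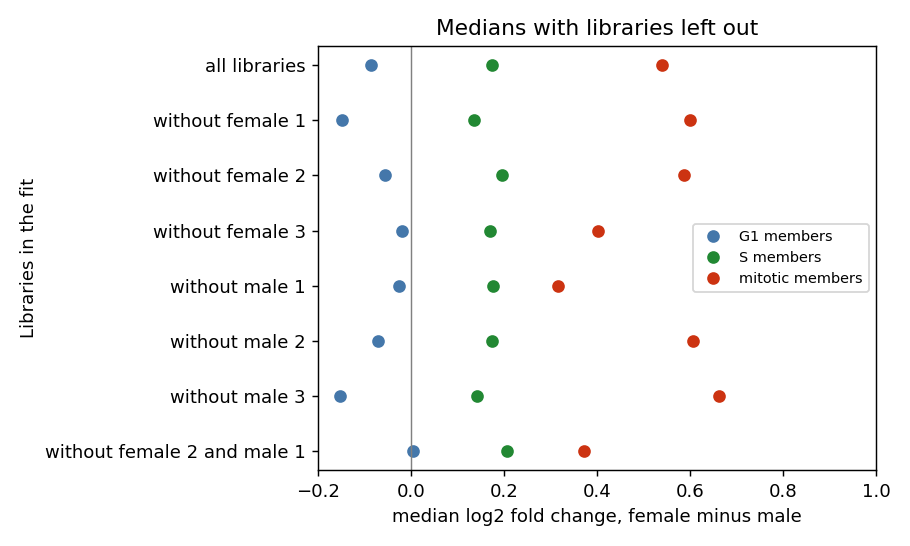
Median log2 fold change, female minus male, of G1, S-phase and mitotic genes with all libraries and with libraries left out. The mitotic median is 0.54 with all libraries and 0.32 without male 1, while the S-phase median stays between 0.13 and 0.21.

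Further genes of the cycle, from 3 lists that left out the 40, were mostly above 0, the E2F and CDK control list included, unlike the G1 genes among the 40. Of 16 genes of E2F and CDK control 13 were above 0 (median 0.18), of 36 replication genes 34 (median 0.20), and of 50 genes of mitosis all 50 (median 0.42), against 53.6% of all genes. None passed in edgeR's test in either direction. At an unadjusted p under 0.05 there were 6, 11 and 18 higher and none lower in females, against 5.82% and 8.74% of all genes, and DESeq2 called 2, 1 and 3 higher, against 1.22%. Male 1 was the lowest library for 45 of the 50 mitosis genes and female 3 the highest for 42.

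The checkpoint kinase gene Chek1 had the smallest p of the control list, at 7.50, 6.41 and 6.96 CPM in females and 5.04, 5.002 and 4.92 CPM in males (0.48, SE 0.11, edgeR adjusted p 0.143). It was followed by Wee1, which holds CDK1 inactive (0.40, SE 0.11), and by Skp2, a ubiquitin ligase subunit gene (0.34, SE 0.11). In the replication list these were Dbf4, the activator of the CDC7 kinase (0.38, SE 0.09), the clamp loader gene Rfc5 (0.28, SE 0.09) and the histone chaperone gene Asf1b (0.28, SE 0.10). In the mitosis list they were the condensin II gene Ncapg2, the kinesin gene Kif22 (0.63, SE 0.18) and Zwilch, a kinetochore gene (0.45, SE 0.13). Ncapg2 was at 54.2, 55.9 and 46.0 CPM in females and 28.3, 40.6 and 36.1 CPM in males (0.57, SE 0.14, edgeR adjusted p 0.165). Every female lay above every male in 5 of the 16, 12 of the 36 and 19 of the 50 genes, against 9.65% of all genes; the genes named here were chosen by smallest p.

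Cell marker lists differed between libraries beside these genes. The myelin gene Mbp was at 2814 to 4225 CPM in females and 5567 to 7397 CPM in males, highest in male 1. Of 10 Schwann cell genes all 10 were below 0, at 1189.9 to 1641 against 1671 to 2215 CPM. Of 13 monocyte and macrophage genes 11 were above 0, at 4896 to 6423 CPM in females and 4198 to 5825 CPM in males, lowest in male 1. Of 13 neutrophil genes 11 were above 0, at 1390.2 to 2198 against 896 to 1741 CPM. Of 12 nerve fibroblast genes 11 were below 0, at 8948 to 9500.2 against 11428 to 15737 CPM. Of 12 T and NK cell genes all 12 were below 0, at 10.5 to 13.3 against 15.7 to 23.5 CPM, and of 8 B cell genes 7 were. Of 6 perineurial genes all 6 were below 0, while 8 mural cell genes were split 4 and 4. Of 9 endothelial genes 8 were above 0, but the sums overlapped, at 357 to 522 CPM in females and 403 to 451 in males. Of these 9 genes 6 were lowest in female 3. Of 9 adipocyte genes all 9 were above 0 and highest in female 2, with overlapping sums of 516 to 1751 against 669 to 1065 CPM. No list had a defining marker at 0 in all libraries. The part of these cells in the mitotic difference was not tested.

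Blood precursors that divide were measured by a list of 11 neutrophil precursor genes, of which 7 were tested and 5 were above 0. The list summed to 353 to 509 CPM in females and 169 to 238 CPM in males. Nearly all of it was Chil3, at 343 to 502 against 161 to 228 CPM, a gene that monocytes and macrophages also make. The precursor granule genes Elane and Mpo had 38 and 25 reads in all 6 libraries together, at most 0.163 and 0.120 CPM in any library. Other genes of the list were higher, with Prtn3 at 3.81 to 4.73 CPM and Cebpe at 1.53 to 4.22 CPM over the libraries. The 8 tested red cell genes had 4 above 0. Of that list, the precursor factor gene Klf1 had 25 reads in all, whereas Alas2 was at 47.7 to 111 CPM. Whether dividing blood precursors were present was not tested.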

How the data were processed

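Trimmomatic 0.39, Salmon 1.5.2 and MultiQC 1.9 are named in the submitters' processing notes. For each of 140789 transcripts the deposited tables hold, per the file headers, Salmon's estimated count of reads, a TPM and an effective length. Build: not given in the sources used here; nor is the annotation release. Salmon divides reads among similar transcripts by estimation, and the authors left these counts unscaled. Counts were summed per gene and rounded, then filtered (filterByExpr), TMM-scaled and compared between the sexes with edgeR 4.0.16 (R 4.3.3) by its quasi-likelihood test, robust and without covariates, with Benjamini-Hochberg adjustment over all genes. The fit was also run on simulated counts, from which no conclusion is drawn here. SE is the absolute log2 fold change divided by the square root of F. Levels are compared between genes by the TPM deposited by the authors. A count of 0 allows up to 3 reads, at most 0.0543 CPM, which covers counting error only. Any 2 libraries differed beyond sampling noise (chi-square per degree of freedom 26.3 or more), and the biological coefficient of variation was 0.183. One item is not reported here. The labels do not pair libraries of the 2 sexes.

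The members and gene lists were chosen with earlier results of these data known. Values in every library are given for the 4 members of each phase with the highest mean TPM and the 4 with the smallest unadjusted p. Members at the ends of a phase's range are named, as are the 3 genes of each further list with the smallest p. The library values of Ccnb1, Foxm1, Plk1 and Mki67 were added after their values were seen. Alternatives were RLE and upper-quartile scaling, no filter or a mean CPM of at least 1, DESeq2 1.42.0, limma-voom (limma 3.58.1), a transcript length offset, the replicate block, no robust estimation, libraries left out and, chosen after seeing the data, coding transcripts only.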

Additional observations from a re-analysis of the deposited data

How the results depend on the processing

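Over 17 alternative settings, 668 of 680 values for single members kept their direction and their side of the threshold, 10 changed sign (6 members) and 2, those of Aurka and Cdk1 in DESeq2, passed it. All 22 mitotic genes were above 0 in every setting. Genes called higher and lower in females over the whole table numbered 3 and 18, against 44 and 147 with no filter, 233 and 638 in DESeq2, 0 to 17 and 4 to 188 with 1 library left out (17 and 188 without female 3), 6 higher in limma-voom, 1 higher with the length offset and 6 higher without female 2 and male 1. DESeq2 called 2 members and 6 other cell cycle genes higher. With the length offset 1 G1 gene was above 0, and Ccne2 (-0.0232) and Mcm3 (-0.033) were below 0. Without female 2 and male 1 Ccne1 was at 0.0585 and the G1 median at 0.0033. With 1 library left out, Ccne1 ranged from -0.245 to 0.0697, Ccne2 from -0.0748 to 0.284, E2f1 from -0.0108 to 0.124, Cdc6 from -0.0212 to 0.283 and Mcm4 from -0.0307 to 0.0741, the number of G1 genes above 0 from 1 to 3 and the E2F and CDK control median from 0.0619 (without female 1) to 0.235. With log2 (TPM + 1) the G1 level was -0.0121 in male 1 and 0.0773 in male 3. The cause was not tested for any of these.

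With the replicate number as a block, 0 genes were called higher and 3 lower, no member was called, and the medians were -0.09 for G1, 0.17 for S-phase and 0.56 for mitotic genes. Deviations of same-numbered libraries correlated at -0.141, -0.256 and 0.013 for numbers 1 to 3, and libraries did not all correlate best with their own number, so the numbers were not taken as pairs.

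Each sex has 3 libraries, so the spread between them limits the precision: the largest fold change, 0.995 for Ccnb1, had an SE of 0.42. Cdc25c and Ccnb2 rest on far fewer reads than the replication genes.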

Other observations

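The transcript tables split each gene's TPM among its transcripts, as Salmon estimated it. Tyms had only 20.4% to 33.9% of its TPM in protein-coding transcripts. Its largest part was Tyms-205, a transcript of 618 nt annotated for nonsense-mediated decay, with 33.0%, 31.8% and 33.0% of Tyms TPM in the female libraries and 50.3%, 40.2% and 38.7% in the male ones, in replicate order. Tyms-202, with a retained intron, lay the other way, at 20.4% to 24.7% in females and 14.1% to 19.5% in males. Cdk1 split nearly evenly between Cdk1-202, the coding transcript of 1253 nt, and Cdk1-204, a retained-intron transcript of 475 nt with 40.8% to 52.5% of its TPM.

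Aurka-203, the main coding transcript of Aurka, held 85.7%, 82.7% and 81.5% of Aurka TPM in females and 95.4%, 90.1% and 88.3% in males. Mybl2-201 held 67.3%, 57.6% and 62.1% of Mybl2 TPM in females and 70.2%, 75.1% and 88.0% in males. No test was run on these shares, which were picked after their values were seen. Most member transcripts with at least 10% of their gene's TPM in any library overlapped between the sexes in their share.

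Single libraries stood apart in other genes. In male 1, Mcm3-201, the coding transcript of Mcm3, held 58.6% of Mcm3 TPM against 87.7% to 97.8% in the other libraries. Mcm3-205, with a retained intron, held 26.6% there against at most 5.69%. Among mitotic genes, coding Cenpe-201 was at 55.1% in male 1 against 72.5% to 100% elsewhere. Coding Top2a-201 was at 51.9% against 68.7% to 75.8%. The shares of coding Cdk1-202 (57.8%) and Foxm1-201 (65.1%) went the other way and were highest in male 1. Over the whole library, retained-intron transcripts took 3.05% of reads in male 1, the lowest of the 6. In male 2, Cenpf-202, a transcript of 358 nt, held 48.4% of Cenpf TPM and was listed at 0 in the other 5 libraries, so the mean TPM of Cenpf in males includes it. With coding transcripts only, the medians were -0.08 for G1, 0.18 for S-phase and 0.54 for mitotic genes.

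Pseudogenes named after members took few reads. Ccnb2-ps had 67.4 reads over the 6 libraries, and Pcna-ps2, Ccnd3-ps and Tyms-ps each had under 5.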
